A study of Mus musculus with 40 samples.

Results

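Small heat shock proteins are the subject here: the 7 genes Hspb1, Hspb2, Hspb3, Hspb6, Hspb7, Hspb8 and Cryab, picked by symbol from the 23420 genes counted in each library of a mouse heart study. The group was put together around Hspb6, because earlier results of these data had shown its mRNA to be low in transgenic hearts and its Ago2-bound RNA to change less. The TG against ntg values of Hspb6 in both kinds of library, and in 1 kind relative to the other, are therefore given as a description without a test, while the other 6 genes entered by family name. All 7 passed the filter on low counts in both kinds of library. Of the further family members, Cryaa had 0 counts in all 40 libraries, Hspb9 had at most 9 and Odf1 at most 2, and these 3 were not tested.

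The study took 20 hearts from FVB/N mice that the sample labels give as male and 12 weeks old; the series text gives a range of ages up to that. TG TAC hearts (n = 7) came from mice with a transgene that overexpresses the microRNA miR-378a and had 2 weeks of pressure overload by transverse aortic constriction (TAC), a surgical narrowing of the aorta. ntg TAC hearts (n = 7) came from non-transgenic mice with the same operation, and TG sham and ntg sham hearts (n = 3 each) had the control operation; the authors' combined tables call the sham hearts unoperated. The promoter that drives the transgene is not given in the sources used here. From sections of each heart without the right ventricle came 1 library of polyadenylated RNA, called mRNA below, and 1 of RNA pulled down with Ago2, the protein that carries the microRNA in the RNA-induced silencing complex (RISC).

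Small heat shock proteins share an alpha-crystallin domain, assemble into oligomers and hold unfolding client proteins without using ATP. The heart expresses several of them at a high level, where they protect desmin, titin, filamin and actin filaments under mechanical and oxidative stress. Some family members are induced by heat shock factors, while others are expressed in muscle without stress.

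The regions upstream of the start sites are shown first, because the family divided into genes that were higher and genes that were lower in TG hearts. RefSeq promoters (GRCm38.p6, the assembly also called mm10) were found for 5 of the 7 genes, and not for Hspb2 and Cryab. The windows of Hspb8 and of a further Hspb6 start site were searched but are not printed. Each line gives the 250 bases before a start site, read 5′ to 3′ on the gene's own strand; capitals mark matches to GAANNTTC, the core of a heat shock element, or to TATAAA. Hspb1 lies at chr5:135887669-135887918 (plus strand), Hspb6 at chr7:30553051-30553300 (plus strand), Hspb7 at chr4:141420529-141420778 (plus strand) and Hspb3 at chr13:113663677-113663926 (minus strand).
Hspb1: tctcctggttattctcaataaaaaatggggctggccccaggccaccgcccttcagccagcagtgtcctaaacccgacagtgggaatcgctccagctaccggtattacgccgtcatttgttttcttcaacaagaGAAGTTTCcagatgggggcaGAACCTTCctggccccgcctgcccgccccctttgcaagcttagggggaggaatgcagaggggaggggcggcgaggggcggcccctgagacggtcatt
Hspb6: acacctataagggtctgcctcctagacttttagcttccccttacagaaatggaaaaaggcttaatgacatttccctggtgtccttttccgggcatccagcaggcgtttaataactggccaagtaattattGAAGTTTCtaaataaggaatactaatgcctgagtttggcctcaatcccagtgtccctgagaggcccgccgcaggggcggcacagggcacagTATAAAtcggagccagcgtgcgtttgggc
Hspb7: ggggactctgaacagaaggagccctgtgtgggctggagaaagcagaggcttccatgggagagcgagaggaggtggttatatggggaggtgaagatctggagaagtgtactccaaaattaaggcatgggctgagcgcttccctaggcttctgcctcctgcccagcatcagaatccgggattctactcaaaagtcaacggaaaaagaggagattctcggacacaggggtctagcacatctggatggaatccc
Hspb3: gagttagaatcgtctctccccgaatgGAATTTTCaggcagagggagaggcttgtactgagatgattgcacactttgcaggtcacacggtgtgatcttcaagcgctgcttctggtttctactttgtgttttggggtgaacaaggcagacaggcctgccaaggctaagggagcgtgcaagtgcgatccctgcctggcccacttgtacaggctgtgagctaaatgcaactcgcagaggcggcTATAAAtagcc
Hspb1 had GAANNTTC matches beginning at positions -117 and -97 from its start site. Hspb6 had 1 beginning at -120 with the same bases as the first of these, GAAGTTTC, and a TATAAA at -29. In Hspb3 the matches began at -224 (GAANNTTC) and -11 (TATAAA), and Hspb8 had a GAANNTTC 2 bases into its transcript. Neither motif occurred in the Hspb7 window, nor in that of a further Hspb6 start site at 30552540. GAANNTTC reads the same on both strands and occurred in 7.86% of 32851 RefSeq promoters, and TATAAA, also searched as its reverse complement, in 13.6%. These searches covered the same length as that of the members, which ran past the start site beyond the 250 bases shown. GAANNTTC followed by NNGAA (on the other strand, preceded by TTCNN) occurred in 0.603% of promoters and in none of those of the members. Hspb1, which was higher in TG hearts, and Hspb3 and Hspb6, which were lower, thus carried the short match upstream of a start site. Hspb7, also lower, did not, and Cryab, also higher, could not be searched. Hspb8, called higher in TG TAC mRNA and not in TG sham mRNA, had its match only past the start site.

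The mRNA libraries held 9.98 to 25.5 M reads in genes and the RISC libraries 7.55 to 25.4 M, of which the ribosomal RNA precursor Rn45s took 48.5% to 62.3%. All 7 cardiomyocyte markers were present in every group. The 8 skeletal muscle markers summed to at most 4.91 CPM (reads scaled to library size, after TMM normalisation) in mRNA. The cardiomyocyte sum in mRNA was 71016 to 86708 CPM in TG sham and 93853 to 99456 CPM in ntg sham hearts, without overlap. In TAC mRNA it overlapped (69205 to 76391 CPM in TG, 70927 to 78206 CPM in ntg hearts). In sham RISC it was 23481 to 24839 CPM in TG and 22368 to 23305 CPM in ntg hearts. Smooth muscle markers summed to 391 to 411 CPM in TG sham and 556 to 723 CPM in ntg sham mRNA. Fibroblast and macrophage sums were also lower there, and endothelial sums overlapped. The part of these sums in the results was not tested. The Mir378 row had 0 counts in every library, so the transgene's product was not measured by these files. In mRNA, Xist and the Y-linked genes divided the hearts by operation: Xist had 1.04 to 3.51 CPM in TAC mRNA and 116 to 141 CPM in sham mRNA, and the 4 Y-linked genes summed to 79.8 to 122 CPM in TAC mRNA and 0.212 to 4.83 CPM in sham mRNA. The Y-linked sum divided the RISC libraries the same way (40.5 to 61.6 CPM in TAC, 0.168 to 1.69 CPM in sham hearts). Xist did not divide them fully: in RISC it had 0.0397 to 0.57 CPM in TG TAC, 0 to 8.39 CPM in ntg TAC, 3.11 to 14.9 CPM in TG sham and 2.14 to 4.48 CPM in ntg sham hearts, and it was called lower in TG TAC than in ntg TAC hearts (log2 -3.45, SE 0.99, edgeR adjusted p = 0.0267). Between those groups the Y-linked Eif2s3y was called higher in TG mRNA (0.48, SE 0.15, edgeR adjusted p = 0.0261). The sham hearts thus went against their label of male sex, and in every comparison of TAC with sham hearts below the operation and this difference cannot be told apart. The 6 adipocyte markers summed to 5.63 to 25.1 CPM in TG sham mRNA and 187 to 273 CPM in ntg sham mRNA. The files carry a separate animal code for each heart, shared by its 2 libraries.

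Hspb6, also called Hsp20, is a muscle chaperone that protein kinases A and G phosphorylate and that 14-3-3 proteins then bind. In mRNA it had 244, 311 and 150 CPM in TG sham hearts, against 1587, 1635 and 1585 CPM in ntg sham hearts. After TAC it had 206 to 350 CPM (median 272) in TG hearts and 1756 to 2188 CPM (median 1849) in ntg hearts. The groups were far apart under both operations: the highest of the 10 TG hearts had 350 CPM and the lowest of the 10 ntg hearts 1585 CPM. The log2 fold change of TG over ntg was -2.79 (SE 0.22) in sham and -2.80 (SE 0.14) in TAC hearts, or 0.145 and 0.144 of the ntg level. In the TG groups its level also scattered more. The coefficient of variation was 34.5% in TG sham and 21.2% in TG TAC hearts, against 1.77% in ntg sham and 9.06% in ntg TAC hearts. Wider scatter in TG sham than in ntg sham mRNA was not particular to Hspb6. It was also seen for Cryab (18.9% against 5.79%), Hspb1 (16.1% against 3.21%), Hspb7 (14.4% against 5.9%) and Hspb3 (17.7% against 10%). Hspb2 (2.31% against 5.77%) and Hspb8 (7.35% against 9.88%) scattered less in TG sham hearts.

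The Ago2-bound RNA of Hspb6 was also lower in TG hearts, by less. It had 119, 115 and 85.6 CPM in TG sham hearts and 137, 169 and 156 CPM in ntg sham hearts. TG TAC hearts had 75.8 to 104 CPM (median 86.5) and ntg TAC hearts 160 to 205 CPM (median 173). The groups did not overlap under either operation. The log2 fold change was -0.54 (SE 0.13) in sham and -0.98 (SE 0.08) in TAC hearts, so that in TAC hearts the bound RNA was at 0.505 of the ntg level rather than at the same level. Leaving out 1 heart at a time moved the sham value between -0.63 and -0.40, the smallest without TG sham 3. Beside the TAC value stands a difference between the libraries: the slope of log2 level on log2 exon length ran from -0.11 to 0.0126 in TG TAC RISC libraries and from 0.0189 to 0.129 in ntg TAC RISC libraries. With this slope in the fit, Hspb6 was at -1.10 (SE 0.15).

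**Figure D1:**
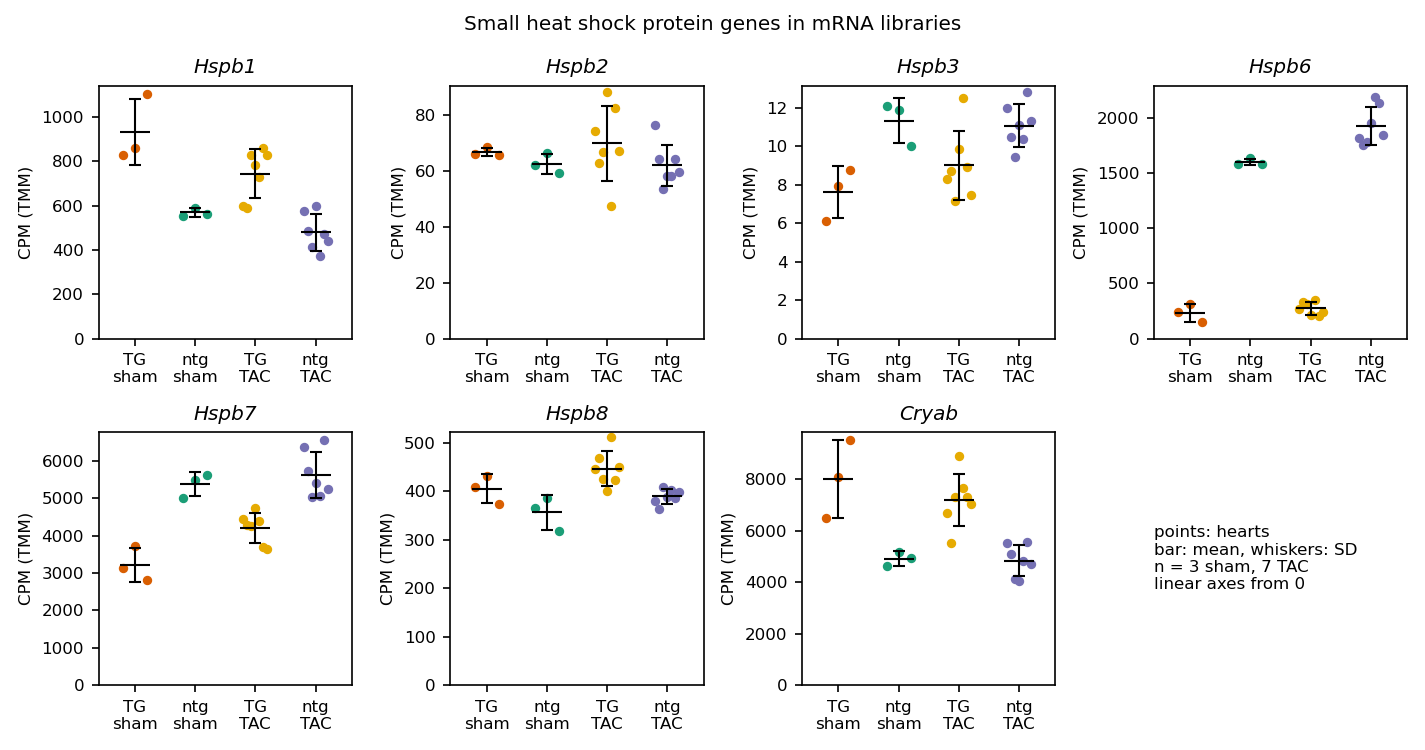
Level of each gene in mRNA libraries (CPM after TMM normalisation, linear axis from 0) in TG sham, ntg sham, TG TAC and ntg TAC hearts; points are hearts, bars the mean and whiskers the SD. Hspb6 sits at 150 to 350 CPM in TG hearts and at 1585 to 2188 CPM in ntg hearts.

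**Figure D2:**
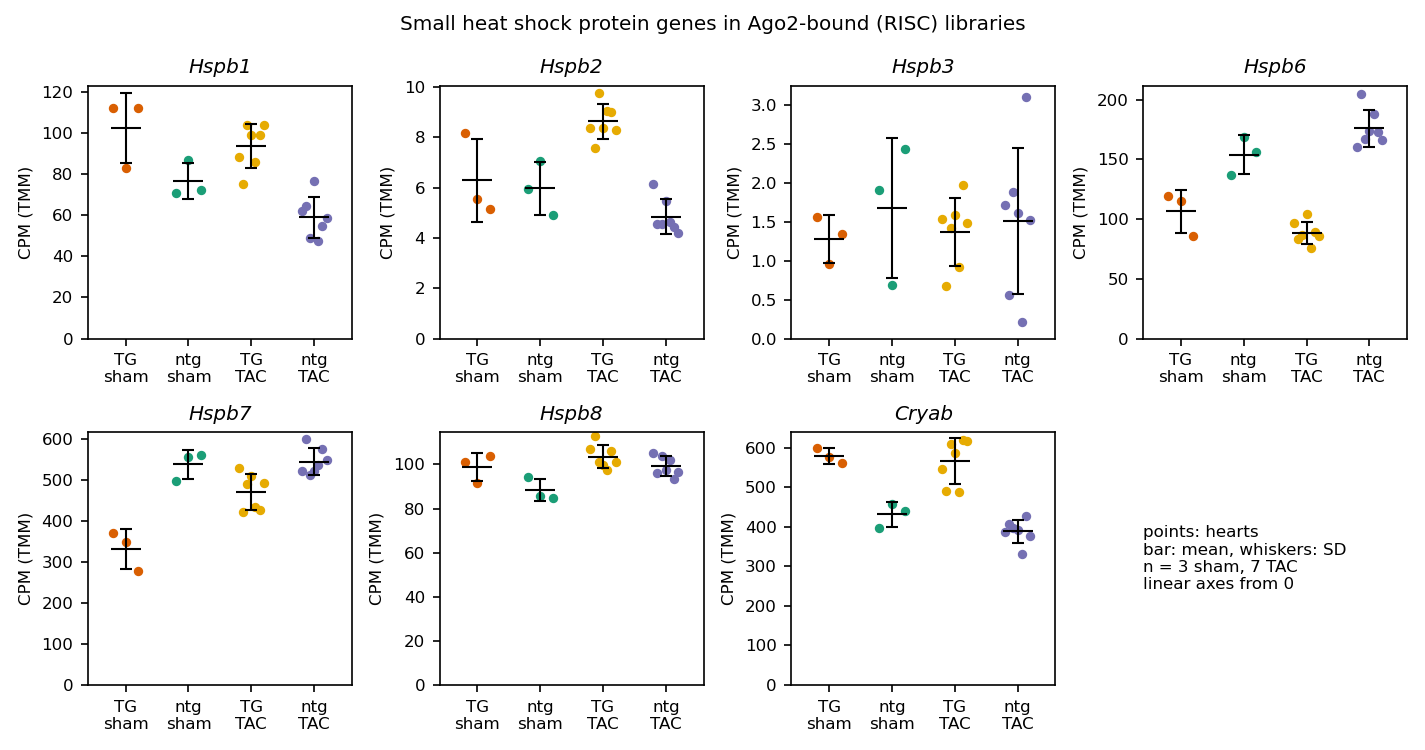
The same plot for Ago2-bound RNA. Hspb6 sits at 75.8 to 119 CPM in TG hearts and at 137 to 205 CPM in ntg hearts, while Hspb3 is at 0.216 to 3.1 CPM throughout.

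Alpha B-crystallin, encoded by Cryab, chaperones desmin and titin and had the highest level per length of the family. Its mRNA had 6476, 8087 and 9511 CPM in TG sham hearts, against 4622, 5190 and 4942 CPM in ntg sham hearts. After TAC the TG hearts had 5537 to 8899 CPM (median 7292) and the ntg hearts 4026 to 5546 CPM (median 4832). The sham groups did not overlap, and the TAC groups did so by the lowest TG heart. Cryab was higher in TG hearts by a log2 fold change of 0.69 (SE 0.15) in sham and 0.58 (SE 0.10) in TAC hearts. The adjusted p was 0.0024 in sham and 0.00012 in TAC hearts, from the quasi-likelihood test of edgeR, adjusted by Benjamini-Hochberg over all tested genes. In Ago2-bound RNA it had 600, 576 and 561 CPM in TG sham and 397, 459 and 440 CPM in ntg sham hearts, which is 0.41 on the log2 scale (SE 0.11, edgeR adjusted p = 0.0234). The TAC values were 488 to 621 CPM (median 588) in TG and 331 to 428 CPM (median 392) in ntg hearts, with no overlap and 0.55 on the log2 scale (SE 0.07, edgeR adjusted p = 2.67e-06). The sham RISC call was lost when any of 4 sham hearts was left out (ntg 1 or 3, TG 1 or 2; highest adjusted p 0.106), and the TAC RISC value was 0.33 (SE 0.12, adjusted p = 0.211) with the length slope in the fit.

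Hspb1, the mouse Hsp25, caps and stabilises actin filaments and is phosphorylated by the kinase MK2. TG sham hearts had 830, 860 and 1103 CPM in mRNA, against 555, 590 and 562 CPM in ntg sham hearts. TG TAC hearts had 588 to 860 CPM (median 782) and ntg TAC hearts 374 to 597 CPM (median 472). Here too the sham groups were separate, and in TAC hearts the lowest TG heart lay within the ntg range. The gene was higher in TG sham hearts by 0.69 (log2, SE 0.16, edgeR adjusted p = 0.00505). In TG TAC hearts it was higher by 0.64 (SE 0.11, edgeR adjusted p = 0.000123). With the level of the adipocyte markers in the fit, its sham value was 0.55 (SE 0.22, adjusted p = 0.141), and the part of that tissue in the difference was not tested beyond that fit. The adipocyte level did not overlap between TG sham and ntg sham mRNA, so level and genotype cannot be told apart there. Its Ago2-bound RNA had 112, 82.7 and 112 CPM in TG sham against 70.9, 86.9 and 72.1 CPM in ntg sham hearts (log2 0.40, SE 0.15, edgeR adjusted p = 0.109). In TAC hearts it had 75.2 to 104 CPM (median 98.7) in TG and 47.2 to 76.5 CPM (median 58.7) in ntg hearts, a rise of 0.67 (SE 0.10, edgeR adjusted p = 1.08e-05) that was 0.52 (adjusted p = 0.128) with the length slope in the fit.

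Hspb7, a chaperone of heart and skeletal muscle that binds filamin C, went the way of Hspb6 at a smaller size. In mRNA it had 3135, 3712 and 2797 CPM in TG sham hearts and 5013, 5491 and 5613 CPM in ntg sham hearts. The TAC groups had 3632 to 4746 CPM (median 4287) in TG and 5028 to 6566 CPM (median 5393) in ntg hearts. No TG heart reached the lowest ntg heart under either operation. On the log2 scale Hspb7 was at -0.76 in TG sham hearts (SE 0.12, edgeR adjusted p = 0.000105) and at -0.42 in TG TAC hearts (SE 0.08, edgeR adjusted p = 0.000421). Its Ago2-bound RNA had 370, 348 and 277 CPM in TG sham hearts and 498, 557 and 561 CPM in ntg sham hearts, which is -0.71 on the log2 scale (SE 0.12, edgeR adjusted p = 0.000129). In TAC hearts the bound RNA had 421 to 529 CPM (median 490) in TG and 512 to 600 CPM (median 537) in ntg hearts; the groups overlapped, and the change of -0.20 (SE 0.08) missed the threshold (edgeR adjusted p = 0.0631) but passed it with DESeq2 (-0.21, adjusted p = 0.0301).

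Hspb8 works with the co-chaperone Bag3 to send damaged muscle proteins to autophagy. Its mRNA had 409, 432 and 373 CPM in TG sham hearts and 365, 386 and 317 CPM in ntg sham hearts. In TAC hearts it had 400 to 511 CPM (median 445) in TG and 363 to 409 CPM (median 388) in ntg hearts. The groups overlapped under both operations, and the difference passed the test in TAC hearts (log2 0.20, SE 0.06, edgeR adjusted p = 0.0155) and not in sham hearts (0.16, SE 0.09, adjusted p = 0.221). Its bound RNA differed by 0.16 (SE 0.10, interval of 2 SE either way -0.05 to 0.36) in sham and 0.07 (SE 0.07, -0.06 to 0.20) in TAC hearts, neither of which passed.

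Hspb2 and Hspb3 form a complex with each other in muscle. Hspb2 mRNA had 65.9, 68.4 and 65.6 CPM in TG sham and 62.1, 66.3 and 59.2 CPM in ntg sham hearts, and 47.5 to 88.2 CPM (median 67.1) in TG TAC and 53.3 to 76.4 CPM (median 59.6) in ntg TAC hearts. These ranges overlapped, with log2 fold changes of 0.07 (SE 0.16, interval -0.24 to 0.38) and 0.18 (SE 0.10, interval -0.02 to 0.38) that did not pass, although the TAC value did without TG TAC 5 (0.25, edgeR adjusted p = 0.0234). Its Ago2-bound RNA was at 8.19, 5.54 and 5.13 CPM in TG sham and 5.95, 7.04 and 4.92 CPM in ntg sham hearts, which did not pass the test either (log2 0.07, SE 0.20, edgeR adjusted p = 0.909). In TAC hearts it stood apart: TG had 7.59 to 9.76 CPM (median 8.37) and ntg 4.19 to 6.13 CPM (median 4.54), without overlap. That rise of 0.83 (log2, SE 0.13, edgeR adjusted p = 3.69e-05) rests on 128 to 196 reads a library in TG and 37 to 118 in ntg hearts, and was 0.56 (SE 0.22, adjusted p = 0.24) with the length slope in the fit. Hspb3 mRNA was at 6.13, 7.93 and 8.76 CPM in TG sham and 12.1, 11.9 and 10 CPM in ntg sham hearts, and at 7.17 to 12.5 CPM (median 8.73) in TG TAC and 9.43 to 12.8 CPM (median 11.1) in ntg TAC hearts. The sham groups were separate and the TAC groups were not. In TG sham hearts Hspb3 fell by 0.60 on the log2 scale (SE 0.18, edgeR adjusted p = 0.0179), and in TG TAC hearts by 0.30 (SE 0.11, edgeR adjusted p = 0.0479). The TAC call was lost in 14 of 20 fits that left out a heart and without the filter on low counts (adjusted p = 0.0518), and the sham call without ntg 1, ntg 2 or TG 1. Its Ago2-bound RNA had 2 to 51 reads a library, and a difference of the size seen in mRNA was not detectable at this depth (log2 -0.41, SE 0.51 in sham; -0.13, SE 0.34 in TAC).

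Among the 6 genes other than Hspb6, 2 were called higher and 2 lower (adjusted p under 0.05) in TG sham mRNA, where 18.6% of all 14141 tested genes were called (9.17% higher, 9.41% lower). In TAC mRNA 3 were higher and 2 lower, where 25.3% of all genes were called (13.5% higher, 11.8% lower). In RISC libraries 1 was higher and 1 lower in sham hearts (5.81% of all 13451 genes called, 2.71% higher and 3.1% lower), and 3 were higher in TAC hearts (15.2% called, 7.78% higher and 7.46% lower). Counting Hspb6, 5 of 7 genes did not overlap between genotypes in sham mRNA and 2 in TAC mRNA, where 34.5% and 8.07% of all genes did so. In RISC the counts were 3 of 7 in both operations, where 25.5% and 3.96% of all genes did so. As the transgene contrast was behind the choice of Hspb6, nothing is read from these shares. In a bulk sample, fewer cells of a type and less RNA per cell cannot be told apart.

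**Figure D3:**
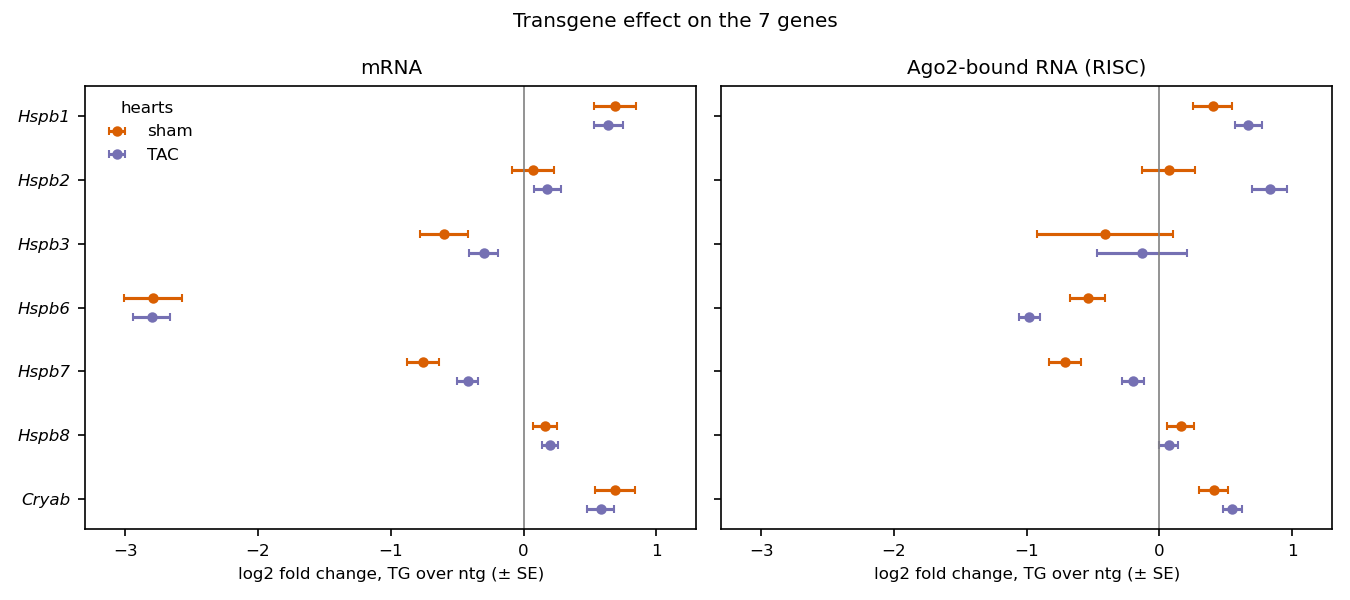
Log2 fold change of TG over ntg hearts with its SE for each gene, in mRNA and in Ago2-bound RNA, for sham and TAC hearts. Hspb6 stands at -2.79 and -2.80 in mRNA and at -0.54 and -0.98 in Ago2-bound RNA; Cryab and Hspb1 lie above 0 in all 4 comparisons.

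The make-up of the family differed between genotypes, while the ranges of its summed level overlapped. Per kilobase of exon, the 7 genes summed in mRNA to 9454 ± 1342 CPM in TG sham and 8217 ± 375 CPM in ntg sham hearts (SD, n = 3 each), and to 8971 ± 956 CPM in TG TAC and 8400 ± 771 CPM in ntg TAC hearts (SD, n = 7 each); the difference in the sum was not tested. Hspb6 made up 1.93% of this sum in TG sham against 14.7% in ntg sham hearts, and 2.36% in TG TAC against 17.4% in ntg TAC hearts. Cryab made up 71.3% in TG sham against 50.5% in ntg sham hearts, and 67.5% in TG TAC against 48.5% in ntg TAC hearts. Hspb7 followed Hspb6 with 12.5% in TG sham against 23.6% in ntg sham hearts, and 17.1% in TG TAC against 24.2% in ntg TAC hearts. In Ago2-bound RNA the shift was smaller: Hspb6 made up 9.25% in TG sham against 14.2% in ntg sham hearts, and 7.55% in TG TAC against 16.9% in ntg TAC hearts. Shares add up to a whole, so that part of each follows from the others. In ntg sham hearts the order of levels per kilobase was Cryab (4150 CPM), Hspb7 (1941), Hspb6 (1209), Hspb1 (630), Hspb8 (197), Hspb2 (74.4) and Hspb3 (14.5), with no overlap between neighbours. In TG sham hearts Hspb6 stood at 177 CPM per kilobase (SD 61.2), beside Hspb8 at 223 (SD 16.4), and those 2 were not separated beyond their spread.

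**Figure D4:**
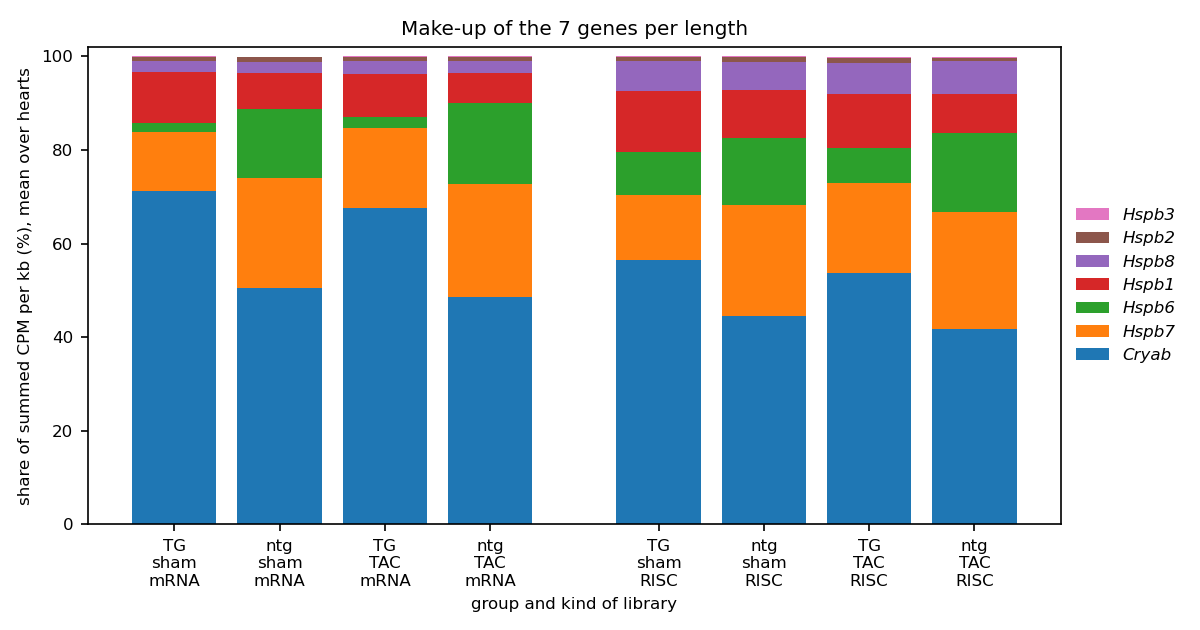
Share of each gene in the family's summed CPM per kilobase of exon (%, mean over hearts, 3 in each sham and 7 in each TAC group), for mRNA and Ago2-bound RNA. In mRNA Hspb6 takes 1.93% and 2.36% in TG groups and 14.7% and 17.4% in ntg groups.

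To set bound RNA against mRNA in the same heart, both kinds of library were normalised together and the log2 ratio of their CPM was taken. Over 9276 genes the median ratio of a heart lay between -0.21 and -0.10. Hspb6 was at -0.02, -0.42 and 0.24 in TG sham hearts and at -2.50, -2.27 and -2.30 in ntg sham hearts. It was at -1.17 to 0.03 (mean -0.56) in TG TAC hearts and at -2.57 to -2.04 (mean -2.39) in ntg TAC hearts. In ntg hearts Hspb6 thus lay among the low ratios of its family, near Hspb7 (-2.29 in ntg sham, -2.31 in ntg TAC) and Cryab (-2.48 in ntg sham, -2.58 in ntg TAC), and in TG hearts it was above every other member's mean. In 1 model of all 40 libraries, the TG effect in RISC exceeded that in mRNA by 2.24 (log2, SE 0.25) in sham and 1.81 (SE 0.16) in TAC hearts for Hspb6. Of the other 6 genes, Hspb2 in TAC hearts passed (0.64, SE 0.15, edgeR adjusted p = 0.0246), where 0.946% of 14372 genes were called, and none did in sham hearts, where 0.244% were. That Hspb2 value was 0.30 (SE 0.15, adjusted p = 0.48) with the length slope in the fit and lost its call when any of 5 TAC hearts was left out (ntg 2, 6 or 7, TG 3 or 5). In sham hearts no other member reached an unadjusted p under 0.05, and DESeq2 called none of them. For Cryab, Hspb1 and Hspb7 the differences between the kinds of library were -0.28 (SE 0.19), -0.29 (SE 0.23) and 0.05 (SE 0.17) in sham and -0.03 (SE 0.12), 0.03 (SE 0.15) and 0.21 (SE 0.11) in TAC hearts.

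**Figure D5:**
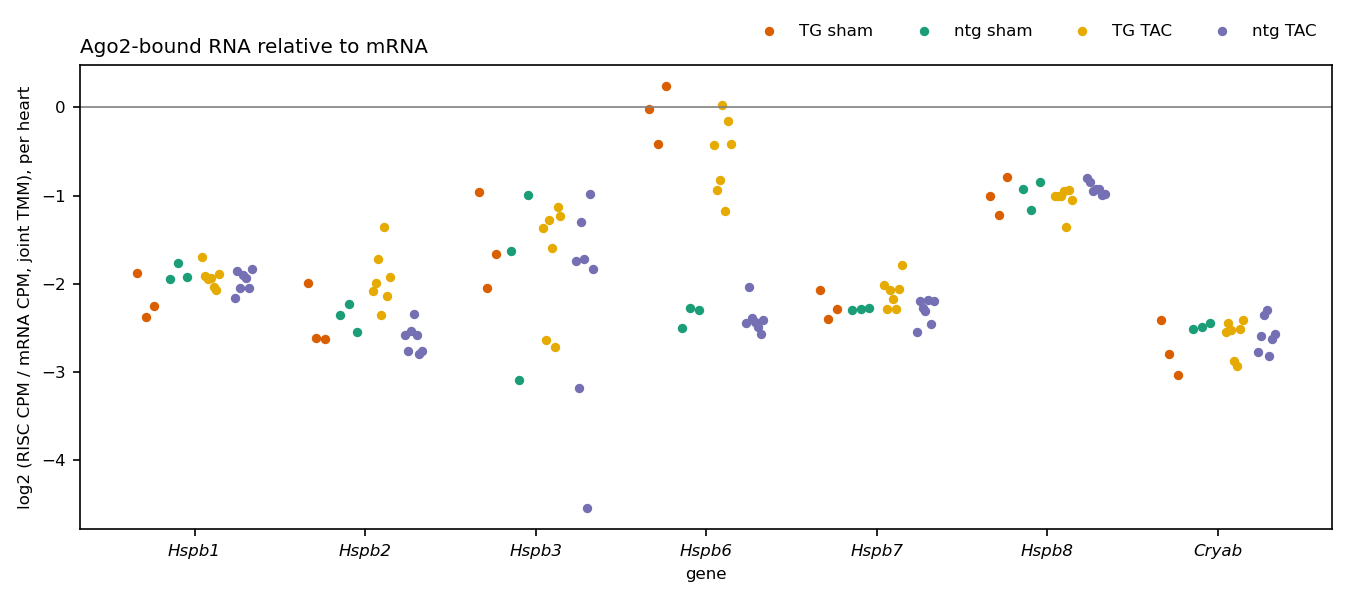
Log2 ratio of Ago2-bound RNA to mRNA in each heart (CPM after joint TMM normalisation) for the 7 genes and 4 groups; each point is a heart. Hspb6 lies between -1.17 and 0.24 in TG hearts and between -2.57 and -2.04 in ntg hearts; the scatter of Hspb3 goes with its few reads.

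Few of these genes were called between TAC and sham hearts, which differ in operation and in the sex-linked genes alike. In ntg mRNA the adipocyte markers also differed without overlap (187 to 273 CPM in sham, 2.65 to 153 CPM in TAC hearts). The same held for the length slope in ntg RISC libraries (-0.0387 to -0.00613 in sham, 0.0189 to 0.129 in TAC hearts). In TG hearts both overlapped. In mRNA, none of the 7 was called between ntg TAC and ntg sham hearts by edgeR, where 17.7% of all genes were called; none had an unadjusted p under 0.05, and DESeq2 called none. For Hspb6 every ntg TAC heart (1756 CPM and above) lay over every ntg sham heart (1635 CPM and below), and its log2 fold change of 0.24 (SE 0.18) had an edgeR adjusted p of 0.38. With the ntg groups alone in the fit, the same 0.24 had an SE of 0.08 and an adjusted p of 0.0403. It was the only member without overlap in that comparison, where 20.1% of all genes had none. Without overlap there were 0 members between TG TAC and TG sham hearts in mRNA (12.1% of all genes), 0 between ntg TAC and ntg sham hearts in RISC (11%) and 1, Hspb7, between TG TAC and TG sham hearts in RISC (12.7%). In TG hearts TAC over sham gave Hspb6 a log2 fold change of 0.23 (SE 0.18, edgeR adjusted p = 0.427).

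Hspb7 was the 1 member called between TG TAC and TG sham hearts in mRNA (0.38, SE 0.10, edgeR adjusted p = 0.0179; 13.1% of all genes called) and in RISC (0.53, SE 0.10, edgeR adjusted p = 0.000903; 8.56% called). The mRNA call was lost without TG sham 1 (adjusted p = 0.071) or TG sham 3 (0.122). In TG RISC, Hspb2 was at 0.48 (SE 0.17, edgeR adjusted p = 0.0693), but passed without TG sham 1 (0.71, adjusted p = 0.0263) and with DESeq2 (0.47, adjusted p = 0.0427). Hspb6 was at -0.24 there (SE 0.11, edgeR adjusted p = 0.158), but passed without TG sham 3 (-0.39, adjusted p = 0.0384). In ntg hearts Hspb7 was at 0.04 (SE 0.10) in mRNA and 0.02 (SE 0.10) in RISC. Hspb1 was the 1 member called between ntg TAC and ntg sham hearts in RISC, by -0.37 (SE 0.12, edgeR adjusted p = 0.0468; 10.9% called), and that call was lost in 10 of 20 fits that left out a heart and without Rn45s (adjusted p = 0.0547). With the length slope in the fit it was at -0.26 (SE 0.16, adjusted p = 0.536). For comparison, Acta1, a gene known to rise with overload, was at 3.37 (SE 0.41, edgeR adjusted p = 0.000113) in TG and 2.42 (SE 0.39, edgeR adjusted p = 0.000463) in ntg mRNA.

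Whether the transgene effect differed between TAC and sham hearts was tested as an interaction, and edgeR called 0 of 7 genes in mRNA, where 0.0849% of all genes were called, and 0 of 7 in RISC, where 0.342% were. At an unadjusted p under 0.05 there were 1 in mRNA and 3 in RISC; DESeq2 called 0 in mRNA and 1 in RISC, Hspb7 (0.50, SE 0.14, adjusted p = 0.0259). The RISC differences of the TG effect were 0.51 (SE 0.14, edgeR adjusted p = 0.118) for Hspb7, 0.76 (SE 0.24, adjusted p = 0.195) for Hspb2 and -0.44 (SE 0.15, adjusted p = 0.26) for Hspb6. The TAC against sham change of RISC relative to mRNA was called by edgeR for 0 of 7 genes in ntg hearts (0.0209% of all genes) and 0 of 7 in TG hearts (0.0278%); 0 and 2 had an unadjusted p under 0.05, and DESeq2 called 0 in both. For the TG effect in TAC less that in sham mRNA, Hspb6 was at -0.01 (SE 0.25, interval -0.50 to 0.48).

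Partners and clients were counted in lists drawn up with earlier results of these data known. Among 10 partners of chaperone-assisted autophagy, 1 was higher in TG sham mRNA and 4 in TG TAC mRNA, with none lower; the list's median log2 fold change was 0.08 and 0.12, beside -0.01 and -0.00 over all genes. Bag3, which binds Hspb8 and Hspb6, was higher by 0.45 (SE 0.09, edgeR adjusted p = 0.00177) in sham and 0.30 (SE 0.06, edgeR adjusted p = 0.000842) in TAC mRNA. Of the 10 partners, 2 were higher in sham RISC and 4 in TAC RISC, with none lower. Over all genes 2.71% and 7.78% were higher there. Bag3 was higher in RISC by 0.54 (SE 0.12, edgeR adjusted p = 0.00306) in sham and 0.40 (SE 0.08, edgeR adjusted p = 0.000377) in TAC hearts. Its TAC RISC value was not examined with the length slope in the fit. In TAC mRNA the other 3 were Gabarapl1, an autophagosome protein (0.34, SE 0.06, edgeR adjusted p = 0.000117), the constitutive chaperone Hspa8 (0.32, SE 0.08, edgeR adjusted p = 0.00677) and the co-chaperone Dnajb6 (0.19, SE 0.05, edgeR adjusted p = 0.00584).

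Of 16 heat shock factors and inducible chaperones, 2 were higher in TG sham mRNA and 1 in TG TAC mRNA, with none lower. Hspa4, a nucleotide exchange factor, was higher in both, by 0.33 (SE 0.08, edgeR adjusted p = 0.00705) in sham and 0.37 (SE 0.05, edgeR adjusted p = 1.63e-05) in TAC hearts. Its relative Hsph1 was higher in sham hearts (1.01, SE 0.27, edgeR adjusted p = 0.0143). The sham call of Hspa4 was lost without TG sham 3 (0.22, adjusted p = 0.0668) and with only the sham groups in the fit (adjusted p = 0.0503), and that of Hsph1 without ntg sham 3 (0.94, adjusted p = 0.0607) or TG sham 3 (0.70, adjusted p = 0.0899). Hsf1, the main heat shock factor, was at 0.05 (SE 0.09) in sham and -0.11 (SE 0.06) in TAC mRNA. Its inducible targets Hspa1a and Hspa1b scattered widely, at 1.82 (SE 1.58) and 1.86 (SE 1.61) in sham and -0.77 (SE 0.88) and -0.84 (SE 0.87) in TAC mRNA, and none passed.

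Of 9 filament and sarcomere clients, 1 was higher and 4 were lower in TG sham mRNA, and 2 were higher and 1 lower in TG TAC mRNA. Titin (Ttn), the giant spring protein of the sarcomere, was lower in both, by -0.72 (SE 0.13, edgeR adjusted p = 0.000288) in sham and -0.43 (SE 0.08, edgeR adjusted p = 0.000439) in TAC hearts. Desmin (Des) was at -0.38 (SE 0.12, edgeR adjusted p = 0.0285) in sham mRNA, a call lost when any of 4 sham hearts was left out. Cardiac actin (Actc1) and tropomyosin (Tpm1) were at -0.51 and -0.38 there, while in TAC mRNA the Z-disc genes Myot and Ldb3 were higher by 0.48 and 0.18. Of 13 kinases and 14-3-3 proteins, 1 was higher and 3 lower in TG sham mRNA (Mapk14, Ywhab and Ywhaz, at -0.36, -0.31 and -0.30, and Prkacb at 0.25), and 1 was higher (Prkd1, 0.60) and 1 lower (Mapk14, -0.25) in TG TAC mRNA. Over all genes, 18.6% were called in sham and 25.3% in TAC mRNA. In RISC, 5 of the 16 heat shock factors and chaperones were higher in TG sham and 4 in TG TAC hearts, with none lower. Of the 9 clients 1 was higher in sham RISC, and 5 were higher and 1 lower in TAC RISC. None of the 13 kinases and 14-3-3 proteins was called in sham RISC, and 2 were lower in TAC RISC. Over all genes 2.71% were higher in sham and 7.78% in TAC RISC. These counts were not taken with the length slope in the fit. As the lists were drawn up with earlier results known, nothing is read from these shares. With the adipocyte level in the fit, the sham mRNA calls of Hsph1, Hspa4, Actc1, Des, Mapk14, Ywhab, Ywhaz and Prkacb were lost (edgeR adjusted p 0.0879 to 0.267). The values of Hsph1 (1.06, SE 0.38), Des (-0.41, SE 0.17) and Prkacb (0.29, SE 0.11) were no smaller there, while their SEs were larger. Hspa4 (0.32), Actc1 (-0.37), Mapk14 (-0.25), Ywhab (-0.23) and Ywhaz (-0.25) were smaller. The adipocyte level (log2) was -0.55 to 0.81 in TG sham and 4.13 to 4.34 in ntg sham mRNA, without overlap. Level and genotype thus cannot be told apart there. Leaving out 1 heart also ended the sham calls of Ywhab and Ywhaz (without ntg sham 3 or TG sham 1, adjusted p 0.0553 to 0.143) and of Prkacb (without any of the ntg sham hearts, TG sham 1 or TG sham 2, adjusted p 0.0654 to 0.0773). In TAC mRNA it ended those of Myot (without TG TAC 3, adjusted p = 0.052) and Ldb3 (without ntg TAC 4 or TG TAC 4, adjusted p 0.0529 and 0.0604).

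In the authors' gene models (mm10) Hspb6 lies at chr7:30553302-30555439 on the plus strand, and Lin37 ends 1 base past it on the opposite strand. As the libraries are not strand-specific, reads running past that end could be given to either. Lin37 was at 0.17 (SE 0.14) in sham and 0.20 (SE 0.09) in TAC mRNA, and BC053749 on the other side at -0.03 (SE 0.18) and -0.18 (SE 0.11), none of which passed with all hearts in the fit. The TAC value of Lin37 did without ntg TAC 1 (0.26, edgeR adjusted p = 0.0267) or TG TAC 2 (0.24, edgeR adjusted p = 0.0471). In RISC Lin37 was higher in TG TAC hearts (0.83, SE 0.23, edgeR adjusted p = 0.0106), the opposite direction to Hspb6. Its mean level over the RISC libraries was 2.45 CPM, and this value was not examined with the length slope in the fit. Of 60 tested genes that start within 1 Mb of the start of Hspb6, 5 were higher and 5 lower in TG sham mRNA (16.7%) and 4 were higher and 4 lower in TG TAC mRNA (13.3%), with medians of 0.01 and -0.02. Those called the same way under both operations were Syne4 (1.55 in sham, 0.96 in TAC), Aplp1 (0.82, 0.56), Tbcb (0.71, 0.51) and Usf2 (-0.38, -0.30). With the adipocyte level in the fit, the sham calls of Syne4, Tbcb and Usf2 were lost (adjusted p 0.0657, 0.328 and 0.051). Their values there were 1.88 (SE 0.62), 0.53 (SE 0.30) and -0.34 (SE 0.11). The sham call of Tbcb was also lost when any sham heart but TG sham 2 was left out, down to 0.47 without TG sham 3 (adjusted p = 0.175). That of Syne4 was lost with DESeq2 (adjusted p = 0.054) and without ntg sham 3 (1.10, adjusted p = 0.142), TG sham 1 (adjusted p = 0.0504) or TG sham 3 (adjusted p = 0.066), and its TAC call without TG TAC 7 (0.83, adjusted p = 0.0505). Hspb2 and Cryab lie 403 bases apart on chromosome 9 and are transcribed away from each other. In TG sham mRNA Cryab was higher by 0.69 (SE 0.15) and Hspb2 was at 0.07 (SE 0.16), and in TG TAC mRNA they were at 0.58 (SE 0.10) and 0.18 (SE 0.10); the difference between the 2 genes was not tested.

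The genes whose log2 level followed that of Hspb6 most closely over the 20 mRNA libraries, among 10154 genes, were Popdc2 (Pearson r = 0.979), Cmya5 (0.978), 1600014C10Rik (0.975), Dazap2 (0.974) and Wbp2 (0.974). Popdc2 is a membrane protein of heart muscle that binds cyclic AMP, and Cmya5 is a muscle protein that binds desmin. Within the groups, after subtracting group means, the r of Popdc2, Cmya5, 1600014C10Rik and Dazap2 was 0.713, 0.545, 0.75 and 0.776, and that of Wbp2 was -0.131. For Cryab the closest were Urm1 (0.96), Cryz (0.932), Ube2g2 (0.93), Szrd1 (0.922) and Itpa (0.912). All these libraries share the genotype contrast, so the r values describe these hearts and carry no test. Between members, Hspb6 had an r of -0.881 with Cryab and 0.856 with Hspb7 over the same libraries, and of -0.375 and 0.444 after subtracting group means. Relations between pairs of members were also computed within each TAC group of 7 hearts, 42 in the TG and ntg groups together. Of these 42, 7 had a permutation p under 0.05 by exact enumeration. After Benjamini-Hochberg adjustment 0 remained (lowest adjusted permutation p 0.108).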

How the data were processed

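The authors deposited raw counts of reads per gene, 1 file per library, made per the submitters' processing notes with Bowtie2, TopHat2 2.0.10 and HTSeq on mm10; DESeq and edgeR are also named there. Per the labels' protocols, the libraries were single-end and not strand-specific. Reads in no gene, on average 11.5% of an mRNA and 4.09% of a RISC library, were left out, while Rn45s was kept. Counts of all genes were analysed with edgeR 4.0.16 (R 4.3.3): filter on low counts, TMM factors, a quasi-likelihood fit over the 20 mRNA or 20 RISC libraries or over all 40, and Benjamini-Hochberg adjustment over all tested genes with a threshold of 0.05. The spread between hearts was 12.9% in mRNA, 16.6% in RISC and 14.6% in the joint fit (biological coefficient of variation). SEs are the fold change over the root of F, and intervals are 2 SE either way. Levels per kilobase use the union of exons in the authors' gene models.

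Members and gene lists were chosen with earlier results of these data known. Named genes were the members, their neighbours, the 5 genes most like Hspb6 and Cryab in log2 CPM, up to 5 genes near Hspb6 called the same way under both operations, and called list members, up to 4 a list; Acta1, Hsf1, Hspa1a, Hspa1b, Xist, Eif2s3y and the RISC values of Bag3 were chosen after their values were seen. The 2 libraries of a heart share an animal code in the files' names; their deviations from the group means had a median correlation of 0.174 (above 0.1 in 15 of 20 hearts). The joint fit has no block, and heart as a block is an alternative. Alternatives were DESeq2 1.42.0, RLE factors, no filter, Rn45s left out, replicate block, adipocyte level or length slope as covariate, only the groups compared, and leaving out each heart. No 2 libraries of a group held identical counts. The fits were tested on simulated data. p-values set a difference against the spread between the libraries of these hearts. In the joint fit, which has no block, the 2 libraries of a heart count as independent.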

Additional observations from a re-analysis of the deposited data

How the results depend on the processing

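Of 2632 values of the 7 genes recomputed under the alternatives, 2575 kept their side of the threshold, 48 lost their call, 9 gained one and 0 reversed a called direction. Values that were not called could change sign and still count as kept. For TG over ntg in sham mRNA, Hspb2 went from 0.07 to -0.03 with the adipocyte level in the fit. The number of members called changed as follows; for TG over ntg it includes Hspb6, which was chosen on that contrast and is not tested by it. With only the groups compared in the fit, TAC over sham in ntg mRNA gave 1 and TAC over sham in TG RISC gave 2, and DESeq2 also gave 2 for the second and 1 for the interaction in RISC. Leaving out Rn45s gave 0 for TAC over sham in ntg RISC. With the length slope as covariate, TG over ntg in TAC RISC fell to 1 and TAC over sham in ntg RISC to 0. TG over ntg in TAC for RISC relative to mRNA fell to 1, Hspb6 itself, with 0 of the other 6. In RISC the slopes of the TG TAC and ntg TAC libraries did not overlap, so slope and genotype cannot be told apart in those libraries. In mRNA the slopes overlapped (-0.0652 to 0.0411 in TG TAC, -0.0733 to 0.07 in ntg TAC). Leaving out a heart gave 4 to 5 members for TG over ntg in sham mRNA, 5 to 7 in TAC mRNA, 2 to 3 in sham RISC, 0 to 1 for TAC over sham in TG mRNA and in ntg RISC, 1 to 2 in TG RISC, and 1 to 2 for TG over ntg in TAC, RISC relative to mRNA.

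The replicate block changed no call of the 6 genes other than Hspb6, of which 4 in sham mRNA, 5 in TAC mRNA, 2 in sham RISC and 3 in TAC RISC were called (5, 6, 3 and 4 with Hspb6). TG and ntg hearts of the same number had median correlations of -0.0157 and -0.0266 in sham and TAC mRNA, and of 0.0866 and 0.105 in RISC. Above 0.1 were 0 of 3 pairs in sham mRNA, 2 of 7 in TAC mRNA and 0 of 3 in sham RISC. In TAC RISC 4 of 7 were above 0.1 (0.0539 to 0.178). Whether the numbers pair the hearts was not tested beyond these values. Counts over all genes moved more. The adipocyte covariate gave 1049 in place of 2627 for TG over ntg in sham mRNA, 1071 in place of 2505 for TAC over sham in ntg mRNA and 0 in place of 12 for the mRNA interaction. Adipocyte levels of ntg sham mRNA overlapped neither those of TG sham nor those of ntg TAC mRNA. Level and contrast thus cannot be told apart there. The length slope gave 175 in place of 2050 for TG over ntg in TAC RISC, 195 in place of 1470 for TAC over sham in ntg RISC, 9 in place of 46 for the RISC interaction, and 74 in place of 35 (sham) and 52 in place of 136 (TAC) for RISC relative to mRNA. The replicate block gave 1062 in place of 1857 (TG mRNA), 840 in place of 1470 (ntg RISC) and 685 in place of 1151 (TG RISC) for TAC over sham, and 68 and 236 for TG over ntg in RISC relative to mRNA; only the groups compared gave 1009 for TAC over sham in TG mRNA. DESeq2 gave 73 and 126 for the interactions in mRNA and RISC, and 121 (sham) and 312 (TAC) for TG over ntg in RISC relative to mRNA. For TAC over sham in RISC relative to mRNA, 3 genes in ntg and 4 in TG hearts became 11 and 92 with DESeq2, 0 and 34 with the replicate block, and 1 and 1 with only the groups compared; in TG hearts they became 22 with the length slope, 2 with RLE factors and 1 without the filter or Rn45s. Leaving out a heart gave 441 to 926 in place of 782 for TG over ntg in sham RISC and 8 to 43 in place of 35 in sham RISC relative to mRNA. For TAC over sham it gave 1473 to 2689 (ntg mRNA), 1020 to 1953 (TG mRNA), 730 to 1487 (ntg RISC) and 510 to 1381 (TG RISC), and for RISC relative to mRNA 1 to 5 (ntg) and 0 to 17 (TG). The interactions ran from 1 to 22 in mRNA and 5 to 66 in RISC. These causes were not tested.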

Other observations

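Short genes as a whole were higher in the TG TAC than in the ntg TAC RISC libraries: of 2101 tested genes with under 1500 bases of exon, 15.7% were called higher and 1.67% lower, with a median log2 fold change of 0.20, beside 0.01 over all genes. Hspb1, Hspb2 and Cryab, the members called higher there, have 903, 840 and 1185 bases of exon. Hspb6, with 1325 bases, went the other way. In TG sham against ntg sham RISC libraries the median of the short genes was -0.05. The part of length in these calls was not tested beyond the fit with the slope.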
